A study of Mus musculus with 7 samples.

Results

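The genes described here encode 35 aminoacyl-tRNA synthetases, 19 of them cytosolic and 16 mitochondrial, measured by bulk RNA-seq in sorted mouse Paneth cells (PCs), granulated secretory cells of the small intestinal crypt. The members were chosen by gene symbol and matched to the Ensembl identifiers of the raw count table, and the rule sets no threshold on their measured values. They are 35 of 55414 identifiers in that table, and all 35 passed the filter on low counts, which left 14329 genes to test. The cells came from C57BL/6J mice given tumour necrosis factor (TNF), a pro-inflammatory cytokine (4 libraries), or phosphate-buffered saline (PBS) as the control (3 libraries), and both groups were collected 15 h after injection. The series description assigns a different animal to every library. The dose, the age and sex of the mice, the stretch of intestine and the surface proteins used for the sort are not stated in the labels.

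Each synthetase loads an amino acid onto the tRNAs that carry it to the ribosome. Cells keep separate sets of these enzymes for the cytosol and for the mitochondrion, which translates the few proteins of its own genome. Both sets are encoded in the nucleus, and mitochondrial enzymes are imported after synthesis. Some genes cross this division: Gars1 (glycine) and Kars1 (lysine) encode both the cytosolic and the mitochondrial form, and no mitochondrial glutamine enzyme exists, since an amidotransferase makes that aminoacyl-tRNA. In PCs, which secrete large amounts of lysozyme and defensins, charged tRNA is a direct input to secretory protein synthesis.

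Total counts ran from 15511455 to 19193721 per library, and a cytosolic member held between 420 and 9517 counts in a library, against 43 to 4524 for a mitochondrial member. Levels are given in CPM (counts scaled to a library size of 1000000), and changes as log2 fold changes of TNF against PBS with their standard error (SE). A gene was called higher or lower when its adjusted p in the edgeR quasi-likelihood test over all tested genes was under 0.05. In this fit, 29.5% of all tested genes were called higher and 30.1% lower, and 60.7% had TNF values that did not overlap the PBS values. The PC markers summed to 168000 to 273000 CPM after PBS and to 160000 to 288000 CPM after TNF, and 1 of 8 was called higher and 2 lower. Markers of other crypt cells moved with the treatment. Stem cell markers were lower for 7 of 9 genes (4180 to 5430 CPM in sum after PBS, 2370 to 3150 after TNF), enterocyte markers for 7 of 8 tested (1030 to 1260, then 305 to 368 CPM) and tuft cell markers for 10 of 11 (1720 to 2840, then 365 to 919 CPM). Goblet cell markers were lower for 5 and higher for 1 of 9 (7660 to 14400, then 6860 to 7490 CPM), and enteroendocrine markers were lower for 5 of 10 tested (51.7 to 122, then 23.5 to 35.2 CPM). Leukocyte markers summed to 24.8 to 32.0 CPM after PBS and 19.2 to 28.7 CPM after TNF, with Cd3e at 0 counts, and of 4 tested Ptprc was lower (-0.95 ± 0.33, edgeR adjusted p = 0.027) and S100a9 higher (0 CPM in every PBS library, 3.21 to 7.85 CPM after TNF). Stromal and endothelial markers reached 2.60 CPM and erythroid markers 0.236 CPM at most. The part of these cells in the changes of the synthetase genes was not tested, and in bulk RNA fewer cells of a type and less RNA per cell cannot be told apart.

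Among the cytosolic enzymes more genes were called higher than lower after TNF, while all calls among the mitochondrial enzymes were lower. Of the 19 cytosolic genes, 10 were called higher after TNF (52.6%, where 29.5% of all tested genes were higher), 4 lower (21.1%, against 30.1%), and 5 were not called. Of the 16 mitochondrial genes, none was called higher, 8 were called lower (50%, against 30.1%), and 8 were not called. At an unadjusted p under 0.05 the edgeR test also gave 0 mitochondrial genes higher, and DESeq2 called 0 higher and 10 lower. The median log2 fold change was 0.36 over the cytosolic genes (range -0.75 to 1.17) and -0.66 over the mitochondrial genes (range -1.37 to 0.20), beside 0.0017 over all tested genes. Groups did not overlap for 10 cytosolic genes (52.6%) and 11 mitochondrial genes (68.8%), where 60.7% is the share over all tested genes, so the count of separated genes was near the background in both classes. A change of at least 2-fold was reached by 1 of 19 cytosolic genes, which rose (14.4% of all tested genes were higher by that much), and by 5 of 16 mitochondrial genes, which fell (17.2% of all tested genes). When libraries were scaled by total counts only, the median of all tested genes moved to -0.16 with 21.9% of them higher and 32.2% lower, and those of the cytosolic and mitochondrial genes moved to 0.20 and -0.81.

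**Figure D1:**
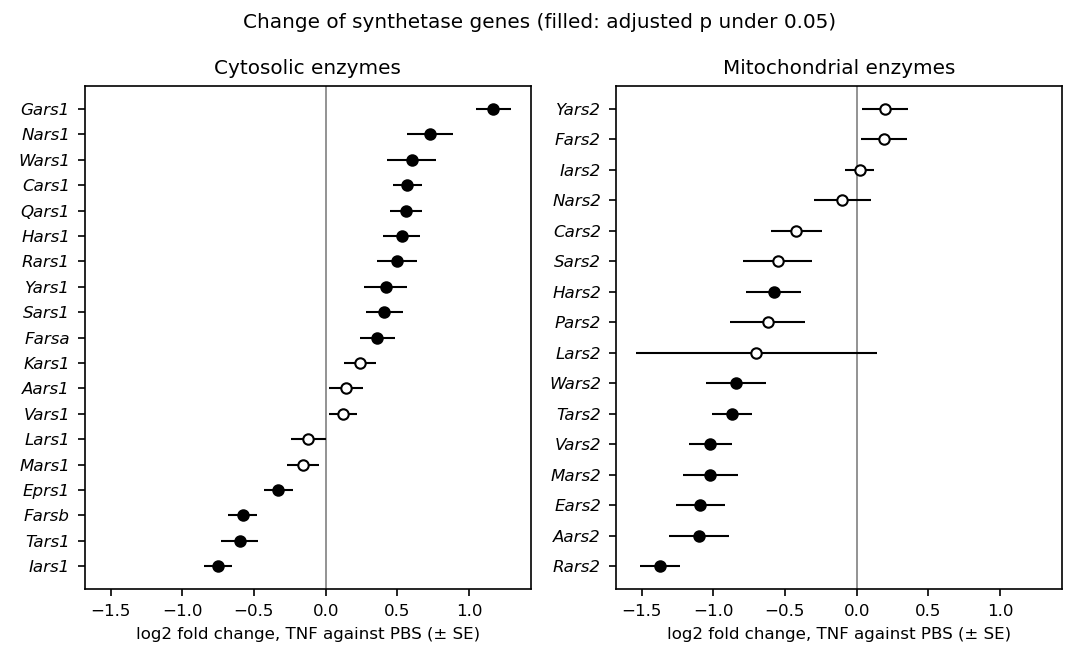
Log2 fold change of TNF against PBS (x axis) for each synthetase gene (y axis), with the SE as a horizontal bar; filled points have an edgeR adjusted p under 0.05. The 19 cytosolic genes run from -0.75 to 1.17 with 13 above 0, and the 16 mitochondrial genes run from -1.37 to 0.20 with 3 above 0.

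The cytosolic gene with the largest change was Gars1 (ENSMUSG00000029777, GRCm39 chromosome 6, 55014927 to 55061231), for the glycine enzyme. The PBS libraries held 111, 101 and 85.7 CPM of Gars1 and the TNF libraries 194, 212, 236 and 250 CPM. Every TNF library lay above every PBS library, and the fitted change was 1.17 ± 0.12 (SE, edgeR adjusted p = 2.55e-06), a 2.25-fold rise. Nars1 (ENSMUSG00000024587, chromosome 18, 64632718 to 64649723), for the asparagine enzyme, had 180, 186 and 132 CPM after PBS and 202, 286, 295 and 319 CPM after TNF. The groups again did not overlap, although TNF replicate 1 lay close to the PBS libraries, and the change was 0.73 ± 0.16 (adjusted p = 0.00173). Wars1 (ENSMUSG00000021266, chromosome 12, 108825955 to 108860188), the tryptophan enzyme and a classical target of interferon-gamma, held 424, 284 and 270 CPM after PBS and 410, 561, 439 and 573 CPM after TNF. It had the highest level per kb of transcript of all 35 genes in both groups (115 ± 30 and 175 ± 29.4 CPM per kb, SD, n = 3 and 4). Its groups overlapped at PBS replicate 1 and TNF replicate 1, and the change was 0.60 ± 0.17 (adjusted p = 0.00899).

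Cars1 (ENSMUSG00000010755, chromosome 7, 143107440 to 143153828), the cysteine enzyme, was steady within groups, at 44.5, 44.8 and 46.6 CPM after PBS and 62.2, 66.4, 70.1 and 70.8 CPM after TNF. It rose by 0.57 ± 0.10 (edgeR adjusted p = 0.000199), with no overlap. Qars1 (ENSMUSG00000032604, chromosome 9, 108384905 to 108393140), the glutamine enzyme, had 110, 93.8 and 92.9 CPM after PBS and 134, 157, 139 and 153 CPM after TNF, and rose by 0.56 ± 0.11 (adjusted p = 0.000458). The other 5 cytosolic genes called higher had smaller changes. They were Hars1 (histidine, 0.53 ± 0.13), Rars1 (arginine, 0.50 ± 0.14), Yars1 (tyrosine, 0.42 ± 0.15), Sars1 (serine, 0.41 ± 0.13) and Farsa (0.36 ± 0.12). Groups overlapped for Rars1, Sars1 and Yars1. A single library decided the call of 3 of them: Yars1 missed the threshold without PBS replicate 1 or 3 or TNF replicate 2 or 4 (adjusted p = 0.0657, 0.115, 0.081 and 0.0961), Sars1 without PBS replicate 3 (0.0693), and Farsa without PBS replicate 2 or TNF replicate 2 (0.0805 and 0.0661). Yars1, Sars1 and Farsa were also not called with scaling by total counts only.

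Among the cytosolic genes that fell, Iars1 (ENSMUSG00000037851, chromosome 13, 49835576 to 49887745), the isoleucine enzyme, had 122, 124 and 100 CPM after PBS and 65.4, 67.0, 73.5 and 68.8 CPM after TNF. All TNF libraries were below all PBS libraries, and the gene fell by 0.75 ± 0.10 on the log2 scale (edgeR adjusted p = 3.04e-05). Tars1 (ENSMUSG00000022241, chromosome 15, 11382387 to 11399775), the threonine enzyme, spread widely after PBS (131, 109 and 88.2 CPM) and little after TNF (68.7, 68.2, 74.8 and 77.1 CPM), and fell by 0.60 ± 0.13 (adjusted p = 0.000921). Eprs1, a fused enzyme for glutamate and proline, fell by 0.33 ± 0.10 (adjusted p = 0.0125), from 182 ± 19.9 to 144 ± 6.69 CPM, and this call was lost without PBS replicate 1 (-0.24, adjusted p = 0.0721).

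The cytosolic phenylalanine enzyme has alpha and beta subunits, and their genes moved in opposite directions. Farsb (ENSMUSG00000026245, chromosome 1, 78392766 to 78465534), for the beta subunit, held 69.2, 73.4 and 70.7 CPM after PBS and 43.2, 51.7, 48.2 and 47.2 CPM after TNF, a fall by 0.58 ± 0.10 on the log2 scale (edgeR adjusted p = 0.000199). Farsa (ENSMUSG00000003808, chromosome 8, 85583610 to 85595887), for the alpha subunit, held 26.0, 24.3 and 26.6 CPM after PBS and 31.5, 38.8, 31.3 and 30.2 CPM after TNF, a rise of 0.36 ± 0.12 (adjusted p = 0.0207). Neither gene overlapped between groups. Per kb of transcript, the ratio of Farsb to Farsa was 2.22, 2.51 and 2.21 in the PBS libraries and 1.14, 1.11, 1.28 and 1.30 in the TNF libraries. This ratio was computed after the opposite calls had been seen and was not tested.

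The 5 cytosolic genes that were not called had changes of 0.24 ± 0.11 (Kars1), 0.14 ± 0.12 (Aars1, alanine), 0.12 ± 0.10 (Vars1, valine), -0.12 ± 0.12 (Lars1, leucine) and -0.16 ± 0.11 (Mars1, methionine). Scaled by total counts only, Aars1 and Vars1 changed sign (-0.01 and -0.05). The change nearest to 0 was that of Lars1 (ENSMUSG00000024493, chromosome 18, 42335349 to 42395259), with 124, 110 and 105 CPM after PBS and 85.3, 113, 109 and 108 CPM after TNF. The 95% interval of its change ran from -0.35 to 0.11. Kars1 was called higher without TNF replicate 1 (0.30, adjusted p = 0.0221).

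Of the cytosolic members, 7 belong to the multisynthetase complex, an assembly of cytosolic enzymes held together by the scaffold proteins of Aimp1, Aimp2 and Eef1e1. In the complex, Qars1 and Rars1 were called higher and Iars1 and Eprs1 lower, while Kars1, Lars1 and Mars1 were not called, with a median log2 fold change of -0.12. These 2 of 7 in each direction are near the shares over all tested genes (29.5% higher and 30.1% lower). Of the 12 genes outside the complex, 8 were higher and 2 lower against the same shares, with a median of 0.42, and the difference between the parts was not tested. The summed level of the complex genes was 753 ± 69.8 CPM after PBS and 750 ± 59.5 CPM after TNF, and that of the others was 1350 ± 180 and 1810 ± 204 CPM (SD, n = 3 and 4). The scaffold genes Eef1e1 and Aimp1 rose by 0.95 ± 0.16 and 0.58 ± 0.14 (edgeR adjusted p = 0.000148 and 0.00245), and Aimp2 had a change of 0.22 ± 0.16 (0.255). Tars3, a threonine enzyme closely related to Tars1, fell by 1.07 ± 0.23 on the log2 scale (0.000973).

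Many cytosolic synthetase genes are known targets of ATF4, the transcription factor of the integrated stress response, which binds the C/EBP-ATF response element (CARE). The letters TGATGNAA were searched on both strands in the 250 bases before each RefSeq start site (GRCm38.p6), a window that was found for 12 cytosolic and 14 mitochondrial genes. They were present for 3 cytosolic genes (25.0%) and 0 mitochondrial genes, and for 3.91% of 27025 genes with a window. The stretches of Gars1 and Tars1 are shown because these genes were called in opposite directions, and the other gene with the letters was not called. They read 5′ to 3′ along the gene strand, with the element, on the opposite strand in each, in capitals.
Gars1, chr6:55037960-55037989, + strand: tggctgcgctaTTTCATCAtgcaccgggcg
Tars1, chr15:11399659-11399684, - strand: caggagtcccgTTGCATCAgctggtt
The element began 30 bases before the start in Gars1, which was called higher (1.17), and 15 bases before it in Tars1, which was called lower (-0.60). Cars1, Hars1, Lars1, Nars1, Rars1, Vars1, Wars1, Hars2 and Pars2 were not examined. The interferon regulatory factor core GAAANNGAA was found in 1 of the cytosolic and 0 of the mitochondrial windows (8.18% of all genes), and the STAT element TTCNNNGAA in 2 and 1 (8.13% of all genes). A match of letters is a description of the window and not a measured binding site.

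In the mitochondrial class, 8 genes were called lower, and none of them overlapped between groups. The arginine enzyme gene Rars2 (ENSMUSG00000028292, chromosome 4, 34614638 to 34660904) fell most, from 23.3, 24.8 and 26.1 CPM after PBS to 9.23, 8.66, 11.1 and 9.36 CPM after TNF. The change was -1.37 ± 0.14 (SE, edgeR adjusted p = 2.11e-06), a 2.58-fold fall. Aars2 (ENSMUSG00000023938, chromosome 17, 45817749 to 45832900), the alanine enzyme, held 10.4, 10.1 and 13.1 CPM after PBS and 4.09, 5.60, 5.35 and 5.96 CPM after TNF, a change of -1.10 ± 0.21 (adjusted p = 0.000393). Ears2 (ENSMUSG00000030871, chromosome 7, 121635056 to 121666864), the glutamate enzyme, went from 17.2, 16.5 and 19.8 to 8.56, 8.31, 10 and 6.67 CPM, a change of -1.09 ± 0.17 (adjusted p = 8.97e-05). The differences of these genes were several times the spread within groups.

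The valine and methionine enzyme genes fell by similar amounts. Vars2 (ENSMUSG00000038838, chromosome 17, 35966526 to 35978510) had 26.6, 27.2 and 33.4 CPM after PBS and 13.6, 17.6, 13.8 and 12.2 CPM after TNF (-1.02 ± 0.15, edgeR adjusted p = 5.06e-05). Mars2 (ENSMUSG00000046994, chromosome 1, 55276336 to 55287629) had 26.6, 26.9 and 35 CPM after PBS and 20.3, 12.8, 13.4 and 11.6 CPM after TNF (-1.02 ± 0.19, adjusted p = 0.000343). In both genes PBS replicate 3 was the highest library, and in Mars2 TNF replicate 1 lay apart from the other TNF libraries.

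Tars2 (ENSMUSG00000028107, chromosome 3, 95647269 to 95667518), the threonine enzyme, fell from 29.4, 27.4 and 31.9 to 18.7, 17.6, 14.0 and 14.3 CPM (-0.87 ± 0.14, edgeR adjusted p = 0.000108). Wars2 (ENSMUSG00000004233, chromosome 3, 99047954 to 99146502), the tryptophan enzyme, fell from 13.4, 11.5 and 8.91 to 7.50, 6.37, 6.00 and 5.17 CPM (-0.84 ± 0.21, adjusted p = 0.003). Hars2 (ENSMUSG00000019143, chromosome 18, 36916061 to 36925615), the histidine enzyme, went from 13.4, 15.2 and 21.5 to 12.3, 10.6, 12.8 and 9.03 CPM (-0.58 ± 0.19, adjusted p = 0.0184). The gap between the groups was smallest for Hars2, whose call was lost without PBS replicate 3 (-0.36, adjusted p = 0.134) or TNF replicate 4 (-0.51, adjusted p = 0.0507).

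**Figure D2:**
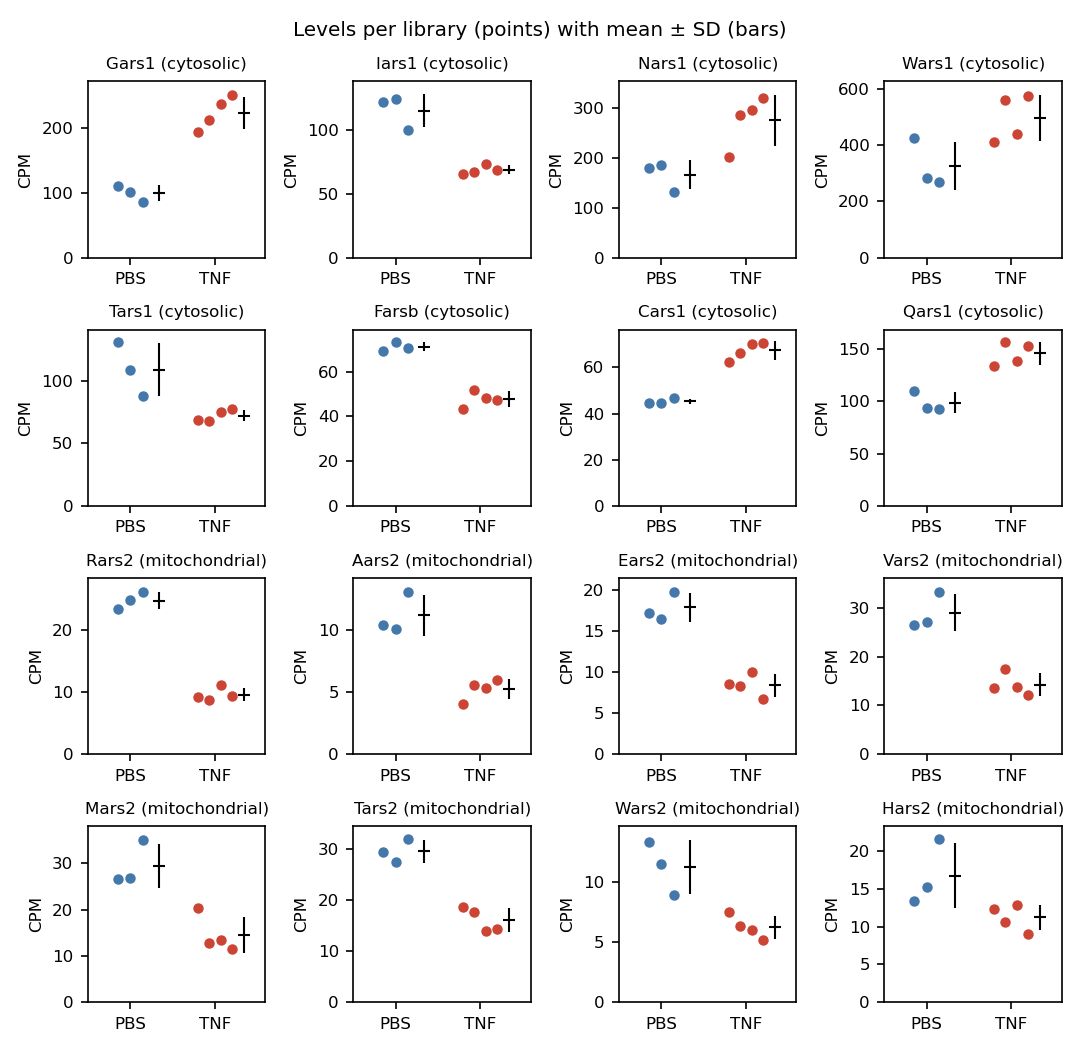
Level in CPM (y axes, from 0) of the 8 cytosolic and 8 mitochondrial genes with the largest called changes, for PBS (blue, 3 libraries) and TNF (red, 4 libraries); points are libraries and black bars the mean ± SD. Gars1 rises from 99.3 ± 12.6 to 223 ± 24.9 CPM, and in every mitochondrial panel all TNF points lie below all PBS points.

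The other 8 mitochondrial genes were not called. Pars2 (proline, -0.62 ± 0.26), Sars2 (serine, -0.55 ± 0.24) and Cars2 (cysteine, -0.42 ± 0.18) had TNF values below all PBS values but missed the threshold (edgeR adjusted p = 0.0558, 0.059 and 0.0572). Each was called lower when certain libraries were left out: Pars2 without TNF replicate 1 (-0.72, 0.0368), Sars2 without TNF replicate 1 or 3 (-0.60 and -0.67, 0.0495 and 0.0419), and Cars2 without PBS replicate 1 (-0.51, 0.043). Nars2 (asparagine, -0.10 ± 0.20), Fars2 (phenylalanine, 0.19 ± 0.16) and Yars2 (tyrosine, 0.20 ± 0.16) overlapped between groups, and Nars2 was at 0.09 without PBS replicate 3. The member nearest to no change was Iars2 (ENSMUSG00000026618, chromosome 1, 185016803 to 185061612), the isoleucine enzyme, with 68.2, 67.6 and 74.9 CPM after PBS and 71.6, 63.8, 76.0 and 73.7 CPM after TNF. Its change was 0.02 ± 0.10, with a 95% interval from -0.18 to 0.22, and its sign turned with scaling by total counts only (-0.15).

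Whether counting used strand is not stated in the labels, so reads of genes on opposite strands may not be separated. Exons of another gene cover 53.8% of the Cars2 transcript (Naxd), 50.3% of Yars2 (Dnm1l), 44.8% of Iars2 (Rab3gap2) and 33.9% of Mars2 (Boll), all on the opposite strand. Of these 4 genes, Mars2 alone was called. Boll had 65 counts over all libraries against 2628 for Mars2, while Naxd, Dnm1l and Rab3gap2 had 2658, 9474 and 5613 counts against 1583, 1629 and 8753 for the synthetase genes. Without these 4, the mitochondrial median was -0.77, with 7 of 12 genes lower. Hars1 and Hars2 are neighbours on opposite strands whose exons overlap over 9.80% of the Hars1 and 5.94% of the Hars2 transcript, and they were called in opposite directions.

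The highest mitochondrial level per kb was that of Lars2 (ENSMUSG00000035202, chromosome 9, 123195952 to 123291731), the leucine enzyme, which varied more between libraries than any other member. It held 280, 76.3 and 96.6 CPM after PBS and 23.8, 162, 48.5 and 137 CPM after TNF, with a coefficient of variation of 74.3% and 72.1% within the groups. The next largest among mitochondrial genes were 25.6% and 26.9%. The level of Rn18s-rs5, an 18S ribosomal RNA gene, ran 7900, 1820 and 1710 CPM after PBS and 299, 7300, 2060 and 6060 CPM after TNF. PBS replicate 1 was highest and TNF replicate 1 lowest for both genes. The fitted change of Lars2 was -0.70 ± 0.84 (edgeR adjusted p = 0.511), and 0.11 without PBS replicate 1. Whether ribosomal RNA reads are part of the Lars2 count was not tested. Without Lars2 the mitochondrial median was -0.62 and 8 of 15 genes were lower.

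**Figure D3:**
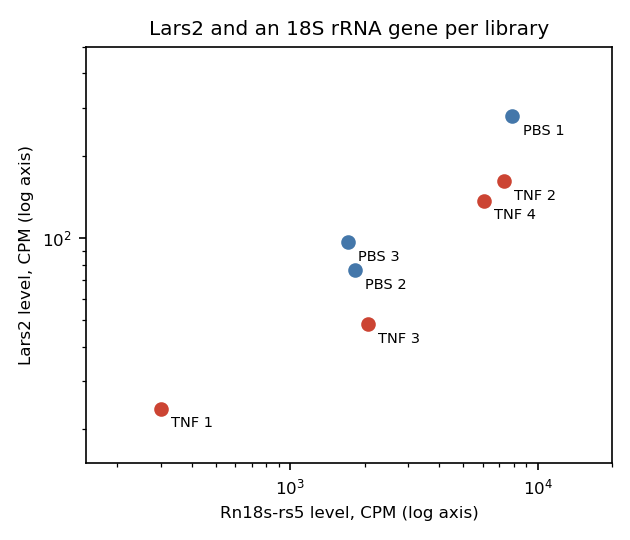
Level of Lars2 (y axis, CPM, log axis) against that of the 18S rRNA gene Rn18s-rs5 (x axis, CPM, log axis) in each of the 3 PBS (blue) and 4 TNF (red) libraries. Lars2 spans 23.8 to 280 CPM and Rn18s-rs5 spans 299 to 7900 CPM, with TNF replicate 1 lowest and PBS replicate 1 highest on both axes.

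To compare the classes within a library, the log2 ratio of counts of the cytosolic to the mitochondrial gene of the same amino acid was taken for 17 pairs, which does not depend on library scaling. The ratio was higher after TNF for 15 pairs and lower for 2, with a median difference of 0.82. For 8 of the rises and both falls, the TNF libraries did not overlap the PBS libraries. These 10 of 17 pairs are near the 60.7% of all tested single genes without overlap. No such share was computed for ratios of other genes. The largest difference was that of the arginine pair Rars1/Rars2, with log2 ratios of 1.92, 1.76 and 1.27 after PBS and 3.24, 3.66, 3.42 and 3.75 after TNF. The difference of 1.87 is a 3.66-fold shift (exact permutation p = 0.0286, adjusted p = 0.0608, n = 3 and 4). For the tryptophan pair Wars1/Wars2 the ratios were 4.98, 4.63 and 4.92 after PBS and 5.77, 6.45, 6.19 and 6.78 after TNF, a difference of 1.46 with the same p-values.

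Differences of 0.77 to 1.24 with no overlap were seen for Aars1/Aars2 (1.24), Vars1/Vars2 (1.15), Hars1/Hars2 (1.09), Sars1/Sars2 (1.00), Cars1/Cars2 (0.99) and Eprs1/Ears2 (0.77). The ratio of the isoleucine pair Iars1/Iars2 went the other way, from 0.84, 0.87 and 0.42 after PBS to -0.13, 0.07, -0.05 and -0.10 after TNF, a difference of -0.76. Farsb/Fars2 had the same difference, -0.76, while Farsa/Fars2 had 0.17 and was at -0.02 without TNF replicate 2. In both pairs that fell, the cytosolic gene was called lower and the mitochondrial gene was not called. The remaining pairs overlapped, with differences of 0.21 (Yars1/Yars2), 0.29 (Tars1/Tars2), 0.30 (Eprs1/Pars2), 0.71 (Lars1/Lars2), 0.82 (Nars1/Nars2) and 0.88 (Mars1/Mars2). In the threonine pair both genes were called lower. The smallest p that 35 groupings of 7 libraries allow is 0.0286, which 8 pairs reached in the two-sided exact permutation test. After adjustment over 17 pairs 0 were under 0.05, and 10 pairs at the smallest p would have been needed.

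**Figure D4:**
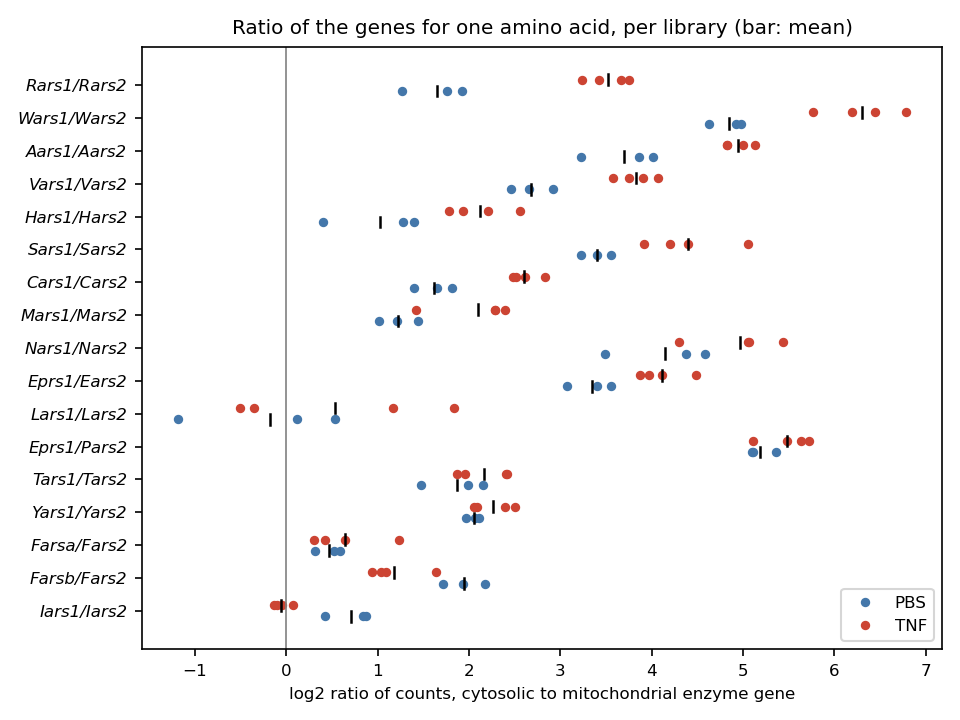
Log2 ratio of counts of the cytosolic to the mitochondrial gene (x axis) for 17 pairs of the same amino acid (y axis), with 1 point per library for PBS (blue) and TNF (red) and a black bar at each group mean. The TNF means lie to the right of the PBS means for 15 pairs and to the left for Iars1/Iars2 and Farsb/Fars2.

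In summed level, the cytosolic genes reached 2360, 2080 and 1860 CPM in the PBS libraries and 2190, 2670, 2590 and 2790 CPM in the TNF libraries, so the groups overlapped through TNF replicate 1. The mitochondrial genes without Lars2 summed to 293, 293 and 339 CPM after PBS and to 227, 210, 232 and 214 CPM after TNF, with no overlap. Their ratio was 8.05, 7.11 and 5.48 after PBS and 9.63, 12.7, 11.2 and 13.0 after TNF. With Lars2 included it was 4.67 ± 0.838 and 8.27 ± 0.898 (SD, n = 3 and 4). Per kb of transcript, the cytosolic genes summed to 644 ± 77.7 and 828 ± 89.3 CPM and the mitochondrial genes to 116 ± 26.6 and 77.7 ± 14.6 CPM. No test was run on these sums.

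Libraries of the same group differed, and how often each library was the extreme over all tested genes was not computed. PBS replicate 3 and TNF replicate 1 had the largest library scaling factors of their groups (1.218 and 1.085). Among the PBS libraries, replicate 3 held the lowest value of 14 of 19 cytosolic genes and the highest value of 11 of 16 mitochondrial genes. Among the TNF libraries, replicate 1 held the lowest value of 17 of 19 cytosolic genes, while among mitochondrial genes it was lowest for 4 and highest for 5. The PC markers were also lowest in these libraries, at 168000 CPM in PBS replicate 3 and 160000 CPM in TNF replicate 1. Stem cell markers were highest after PBS in replicate 3 (5430 CPM). After TNF they were highest in replicate 4 (3150 CPM), which also had the highest PC markers (288000 CPM), and replicate 1 had 3040 CPM. The part of these cells in the synthetase values was not tested. Without TNF replicate 1, 11 cytosolic genes were higher and 10 mitochondrial genes lower, and without PBS replicate 3 these counts were 8 and 7.

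Other genes of mitochondrial translation were not called more often than the background of 29.5% higher and 30.1% lower by any wide margin. Of 8 genes that charge or modify mitochondrial tRNAs, 2 were called higher and 2 lower. Trnt1, which adds the CCA end to tRNAs of both compartments, rose by 1.10 ± 0.12, and Qrsl1, a subunit of the glutamine amidotransferase, rose by 0.61 ± 0.19, while Gatb, another subunit of it, and Mto1, a tRNA modifying enzyme, had changes of -1.45 ± 0.26 and -0.84 ± 0.17 (edgeR adjusted p = 2.66e-06, 0.0117, 0.00023 and 0.000821). Of 9 mitochondrial translation factors, 3 were lower and 1 higher. The lower genes were Tufm, an elongation factor (-1.22 ± 0.14), and Gfm2 and Mrrf, which act in ribosome recycling (-1.41 ± 0.12 and -0.88 ± 0.17), and the higher gene was the elongation factor Gfm1 (0.31 ± 0.11). The tested mRNAs of the mitochondrial genome had changes of -1.15 to -0.51, and 3 of 7 were called lower. The other 6 of its 13 mRNA genes are listed at 0 counts in every library, although cells use them, so their levels could not be read from this table.

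Genes of the mitochondrial ribosome were called higher more often than lower. Of 77 tested genes, 29 were called higher, 11 lower and 37 were not called, with a median log2 fold change of 0.27. Over all tested genes, 29.5% were higher and 30.1% lower. The share of lower calls lay further from its background than the share of higher calls. Among those of at least 5 CPM, Mrpl33 rose by 1.71 ± 0.13, Mrps6 by 1.43 ± 0.22, and Mrpl20 and Mrpl3 by 1.06 each (SE 0.22 and 0.13). Their summed level was 1340, 1360 and 1250 CPM after PBS and 1470, 1660, 1630 and 1790 CPM after TNF, with no overlap. In the cytosol, 0 of 5 tested elongation factor genes were called by edgeR, with changes from -0.21 to 0.07, and 0 had an unadjusted p under 0.05 or a DESeq2 call.

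The integrated stress response, in which phosphorylation of eIF2 raises translation of ATF4, was represented by 21 genes, of which 13 were higher (29.5% over all tested genes) and 3 lower (30.1%), with a median log2 fold change of 0.87. Slc7a11, which imports cystine, went from 10.3, 19.0 and 9.70 CPM to 76.5, 79.0, 135 and 114 CPM, a change of 2.95 ± 0.31 (edgeR adjusted p = 3.65e-05). The serine synthesis genes Phgdh and Psat1 rose by 2.35 ± 0.16 and 2.21 ± 0.20, and Ppp1r15a, a phosphatase subunit that acts on eIF2, by 1.97 ± 0.23. Atf4 itself rose by 0.62 ± 0.11, while Ddit3, which encodes CHOP, had a change of -0.89 ± 0.36 at 1.55 to 4.33 CPM (edgeR adjusted p = 0.000273 and 0.046). Atf4 and Ddit3 were picked out after their values were seen. The summed level of the list was 1830, 1760 and 1530 CPM after PBS and 2490, 2890, 2820 and 3090 CPM after TNF. PBS replicate 3 and TNF replicate 1 were the lowest of their groups, as for most cytosolic synthetase genes. This order is not particular to these lists. The same libraries were lowest for the summed cytosolic elongation factors (4420 and 4270 CPM), mitochondrial ribosomal protein genes, mitochondrial mRNAs and PC markers.

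**Figure D5:**
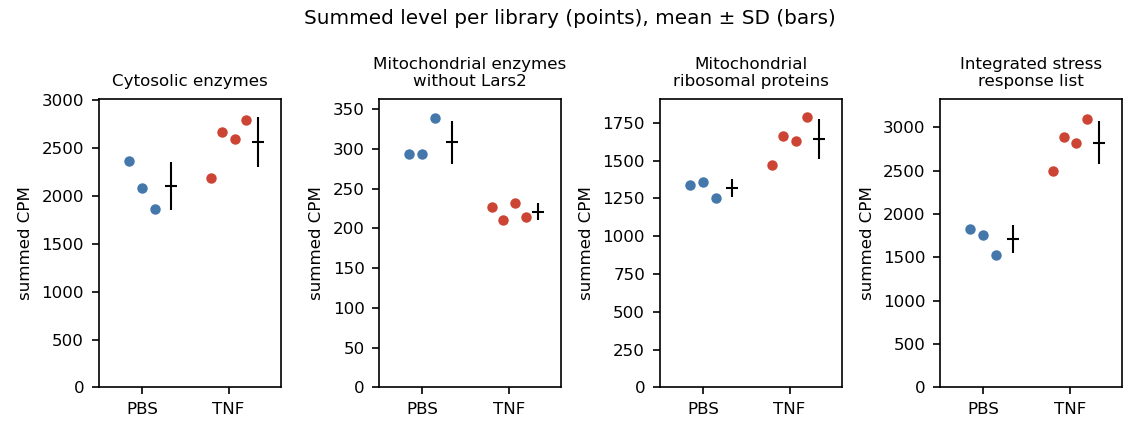
Summed CPM per library (y axes, from 0) of the cytosolic synthetase genes, the mitochondrial synthetase genes without Lars2, the mitochondrial ribosomal protein genes and the integrated stress response list, for PBS (blue, 3 libraries) and TNF (red, 4 libraries), with mean ± SD in black. Groups overlap for the cytosolic genes (2100 ± 250 and 2560 ± 260 CPM) and are apart in the other panels, lower after TNF for the mitochondrial synthetase genes alone (308 ± 26.8 and 221 ± 10.5 CPM).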

How the data were processed

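The authors deposited raw counts, whole numbers of reads per gene and library, from single-end sequencing on an Element AVITI instrument of RNA extracted with a column kit. The submitters' processing notes name FastQC, Trimmomatic 0.39, STAR 2.7.10a and DESeq2, and the builds mm10 and mm39. Which program counted reads, with which annotation and whether by strand, is not given in the sources used here. Symbols, coordinates and canonical transcript lengths were taken from GENCODE M39 (GRCm39), which held 98.8% of identifiers, and promoter windows from RefSeq (GRCm38.p6), matched by symbol. Counts were scaled by TMM, filtered with filterByExpr and tested in R 4.3.3 with edgeR 4.0.16 (quasi-likelihood, robust, two-sided, Benjamini-Hochberg over 14329 genes, all 7 libraries, no covariates). DESeq2 1.42.0 served as an alternative. The edgeR test was run on simulated counts, in which far fewer genes changed than were called here. Ratios used counts plus 0.5 and an exact permutation test over 35 groupings.

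The members and gene lists were chosen with earlier results of these data known. Values in every library are given for up to 8 called members per class with the largest change, for the highest level per kb and for the member of at least 10 CPM nearest to no change. Companion genes named were the called genes of at least 5 CPM with the largest change, up to 4 per list, and exceptions are stated. A few items are not reported here. The labels give replicate numbers but no day, batch or litter, so no batch was examined. Alternatives were other scalings, filters, the replicate block, a pseudocount of 1, a 2-fold minimum, and leaving out each library. After the data were seen, class summaries without Lars2, without members sharing at least 20% of their exons, and without Gars1 and Kars1 were added.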

Additional observations from a re-analysis of the deposited data

Results flagged for a closer look

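Within the 4 TNF libraries, 52 values (35 levels and 17 ratios) were examined for a library far from the others, by the gap to its nearest neighbour as a share of the whole range, against Dixon's limit for 4 values. Chance alone flags about 1 in 20 such groups, and 3 values passed. Farsa had 38.8 CPM in TNF replicate 2 and 30.2 to 31.5 CPM in the others (0.852). Sars1 had 94.4 CPM in TNF replicate 1 and 121 to 125 CPM in the others (0.865). The log2 ratio of Mars1 to Mars2 was 1.42 in TNF replicate 1 and 2.28 to 2.40 in the others (0.877).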

How the results depend on the processing

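Of 22 called members, 15 kept their call in all 14 alternative fits and 0 changed direction in any. With a minimum change of 2-fold, 1 cytosolic gene was higher and 0 were lower, 5 mitochondrial genes were lower, and 4530 genes of the whole table were called, against 8543. Scaling by total counts only gave 7 cytosolic genes higher and 9 mitochondrial genes lower (21.9% and 32.2% over all genes), class medians of 0.20 and -0.81, and opposite signs for the uncalled Aars1 (-0.01), Vars1 (-0.05) and Iars2 (-0.15). The mitochondrial median was -0.77 without the 4 mitochondrial members that share at least 20% of their exons with another gene. Among cytosolic members, Aars1 shares 23.0% with Exosc6 on the same strand, which had 0 counts. The cytosolic median was 0.39 without Aars1. A replicate block gave 5 cytosolic genes higher, 3 lower and 7 mitochondrial genes lower, and a sign change for Iars2 (-0.01). The calls of Wars1, Rars1, Sars1, Farsa, Yars1, Eprs1 and Hars2 were lost under it (edgeR adjusted p from 0.0544 to 0.119). Deviations of same-numbered libraries from their group means correlated at -0.367, -0.0379 and -0.212. With so few libraries this cannot exclude a shared day or batch, and the labels do not say whether replicate numbers pair the libraries. Leaving out each library gave 8 to 11 cytosolic genes higher, 3 to 4 lower and 7 to 10 mitochondrial genes lower. Signs turned for uncalled values within these ranges: Iars2 -0.02 to 0.07, Lars2 -1.11 to 0.11, Nars2 -0.22 to 0.09 and the ratio Farsa/Fars2 -0.02 to 0.29. The causes were not tested. With 3 and 4 libraries, changes of members with under 100 counts in a library, such as Pars2, have the widest errors apart from Lars2.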

Other observations

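Synthetases fall into class I and class II by the fold of their catalytic domain, and both folds were present in each compartment. In the cytosol, 5 of 10 class I genes were called higher and 2 lower, and 5 of 10 class II genes were higher and 3 lower, with Eprs1, which holds a domain of each class, counted in both. Over all tested genes, 29.5% were higher and 30.1% lower. In the mitochondrion, 5 of 9 class I genes and 3 of 7 class II genes were called lower, against the same 30.1%. The median log2 fold changes were 0.27 and 0.30 for the cytosolic classes and -0.84 and -0.58 for the mitochondrial classes. No test of the difference between folds was run.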
